A study of Macaca fascicularis with 64 samples.

Results

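Genes of the interferon response and of antigen presentation were followed through the 4 endocrine cell types of the cynomolgus monkey islet. The list was given by name and holds 39 genes, of which 35 were found by symbol among the 21041 macaque genes counted. ISG15, IFIT5, USP18 and TAP2 were not found by symbol and are not analysed here. The 35 members comprise 2 sensors of viral RNA (DDX58 and IFIH1), 4 signalling factors (STAT2, IRF1, IRF7 and IRF9), 22 effector genes, 6 genes of antigen presentation (B2M, TAP1, TAPBP, PSMB8, PSMB9 and NLRC5) and the chemokine CXCL10.

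Interferons are secreted proteins that bind receptors on neighbouring cells and, through JAK kinases and STAT factors, switch on a common set of genes. DDX58 (RIG-I) and IFIH1 (MDA5) detect double-stranded RNA in the cytoplasm and start interferon production. STAT2 and IRF9 take part in the complex that binds interferon-stimulated promoters, while IRF1 acts mainly downstream of interferon-γ. The effectors, such as the IFIT, MX and OAS families, act against viral RNA or viral proteins, and many of them are also present at a basal level in uninfected cells. PSMB8 and PSMB9 are immunoproteasome subunits, TAP1 and TAPBP load peptides on class I molecules, B2M is the invariant chain of those molecules and NLRC5 is the transactivator of their genes. In pancreatic islets this program is known above all from type 1 diabetes, in which islet cells carry more class I molecules, and IFIH1 is a known risk gene of that disease.

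The islets came from 16 healthy monkeys, 8 young (4 to 6 years) and 8 old (18 to 21 years), each age group made up of 4 females and 4 males, and no monkey was given an infection or an interferon. Each monkey is named here by its age, sex and number. Cells from the tail of the pancreas were picked with a mouth pipette, so the cell numbers are not a census of the islet, and were sequenced in 64 libraries, 4 per monkey. A single monkey was handled per day, and α- and β-cells of a monkey share its libraries, so that monkey and day cannot be told apart.

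Of 6141 barcodes, 5908 had over 800 genes and over 10000 UMIs (unique molecular identifiers, each standing for 1 captured transcript), 2957 in young and 2951 in old monkeys. The highest of the hormone genes GCG, INS, SST and PPY put them in 4503 α-cells, 1219 β-cells, 112 δ-cells and 74 PP-cells. This rule gives every cell an endocrine type. The study, which clustered its cells, kept a small group of other cells apart, and that group was largest in young male 3. The study also filtered cells on the share of mapped reads, which was not done here, and kept fewer cells. The gap was widest in old females 1 and 2. Each monkey gave between 178 and 362 α-cells and between 11 (young female 2) and 194 β-cells, whereas only 11 monkeys had at least 5 δ-cells and 6 had at least 5 PP-cells. Depth per monkey lay between 20719761 and 34053080 UMIs, and the median depth per cell was 64355 UMIs in young and 67360 in old monkeys. Young male 3 was lowest in total depth and in median depth per cell (39036.5 UMIs, against 55417 to 87879.5 in the other monkeys). No cell name occurred in more than 1 library. In α-cells the 16 immune marker genes together held between 11.8 and 272 CPM in young and between 12.5 and 144 CPM in old monkeys. The highest was young male 1, and young male 3 followed with 146 CPM. Of these genes only CD3E was at 0 in every monkey, and the other T-cell genes, CD3D and CD2, were detected. The α-cells of 2 monkeys stood apart in genes outside the list. Those of young female 2 held 1921 CPM of acinar enzyme genes against at most 75.9 CPM elsewhere, and those of young male 3 held 991 CPM of 5 genes of inflamed cells (FDCSP, UBD, VCAM1, CCL2 and BCL2A1) against at most 17.8 CPM elsewhere.

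Levels are given as CPM, the UMIs of a gene per 1000000 UMIs of macaque genes in the summed cells of a monkey. Among α-cells, B2M was detected in 92.6% of cells (95% exact binomial interval 91.8 to 93.4), IFI6 in 91.8%, IFIT1 in 70.8% and IFIH1 in 51.3%. IFI35 (39.4%) and IRF9 (37.6%) followed, and each other member was seen in at most 22.3% of α-cells (PARP9). At the lower end, OAS1 (0.688%), XAF1 (0.422%) and OAS2 (0.200%) were seen in very few α-cells, and 65.0% of all OAS2 UMIs in α-cells came from 1 cell. These intervals cover counting error only. In α-cells, B2M and IFI6 were thus read from nearly all cells, and most effectors from a minority. The lower quartile of IFI6 was nevertheless 0 in α-cells of old female 2.

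**Figure D1:**
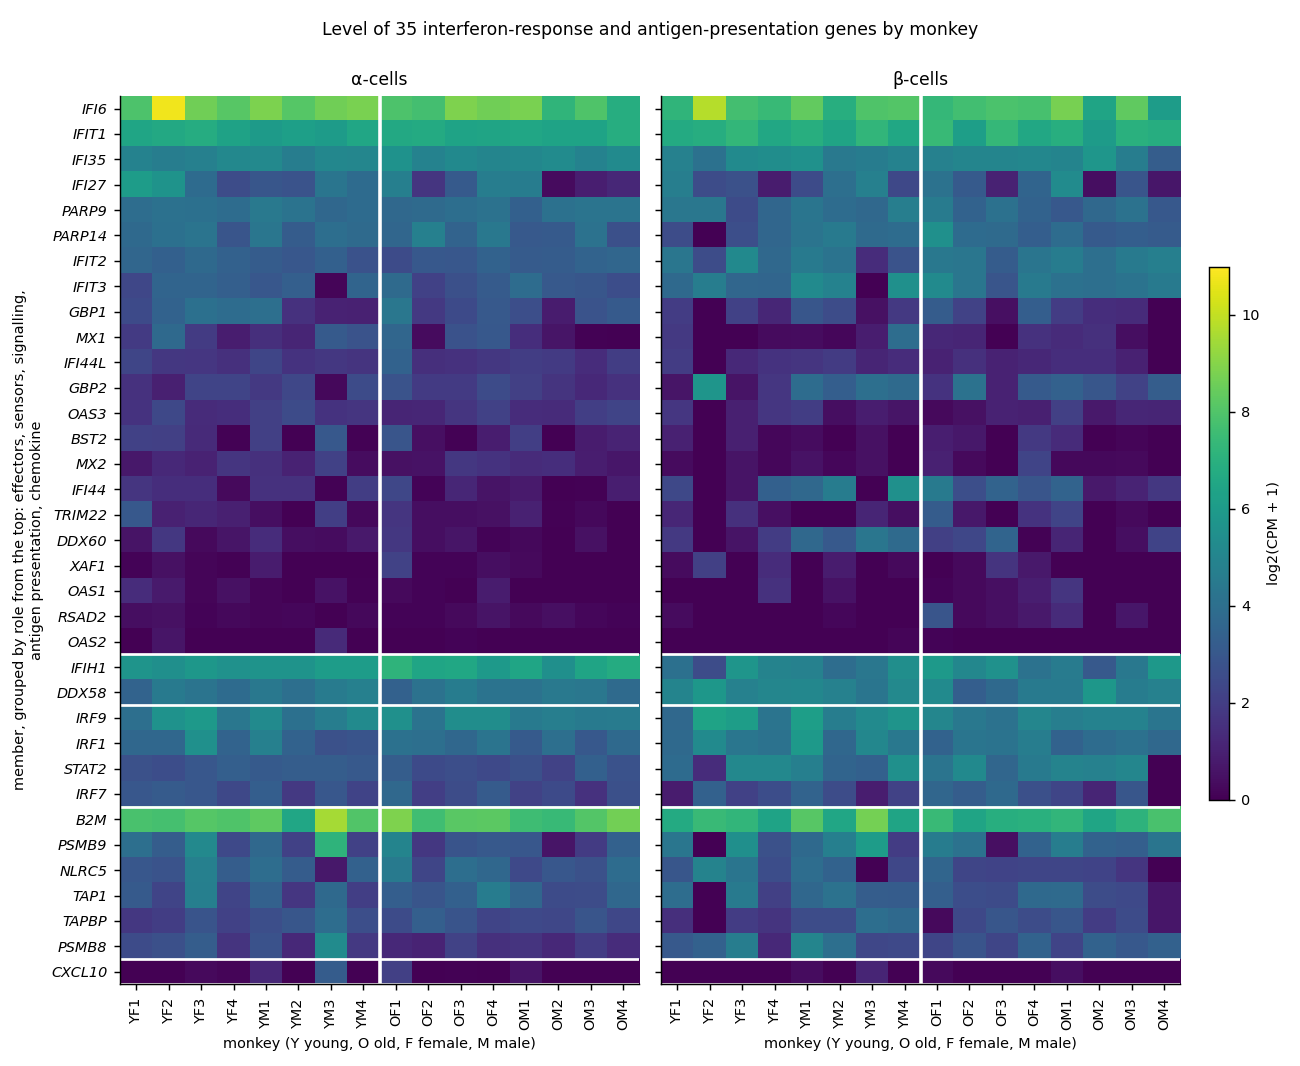
Level of the 35 members in each monkey, as log2(CPM + 1) (colour), in α-cells (left) and β-cells (right). Members are ordered by role, and the white vertical line parts the 8 young monkeys (left) from the 8 old ones. IFI6, IFIT1 and B2M are bright in all columns, the IFI6 cell of young female 2 stands out in both panels, and young male 3 is bright for PSMB9, PSMB8 and B2M and dark for IFIT3, NLRC5 and GBP2.

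Many of these genes were spread between animals, as were many genes outside the list. To ask which members differed between monkeys by more than the libraries of a monkey did, UMI counts were summed per library and tested with edgeR's quasi-likelihood F test. In α-cells 17 of 30 tested members differed between the 16 monkeys at an adjusted p under 0.05, against 39% of the 13806 genes tested. These included 9 of 18 effectors, 1 of 2 sensors, 2 of 4 signalling factors and 5 of 6 genes of antigen presentation. In β-cells 8 of 27 tested members differed, against 25.6% of 12205 genes, and all 8 were effectors or genes of antigen presentation. The β-cell test used 15 monkeys, because young female 2 had too few β-cells per library. The 8 members in β-cells were IFI6, B2M, IFI44 and PSMB9, which kept the call in every alternative, and IFI27, DDX60, IFIT3 and TRIM22, which did not. Among those, DDX60 was lost without old female 4 (adjusted p = 0.0922) or old male 2 (0.0568) and by DESeq2 (0.319), IFI27 without old male 2 (0.0634) or cells with markers of other types (0.0546), and TRIM22 without old male 2 (0.0530) or young males 1 (0.0550) and 2 (0.0569). Without old male 2 the count in β-cells was 5. The share in β-cells was close to that of all genes. The libraries of a monkey hold different cells of the same animal, so these tests speak of these animals on their days and not of age.

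IFI6, which encodes a small mitochondrial and ER membrane protein induced by type I interferon, varied most firmly (adjusted p = 2.8e-27 in α-cells and 1.9e-08 in β-cells, edgeR). Its α-cell level was 1713 CPM in young female 2 and between 245 and 452 CPM in the 7 other young monkeys (young median 392). In the 8 old monkeys it ran from 114 (old male 4) through a median of 245 to 470.0 CPM (old female 3). Young female 2 therefore lay 5.13 times above the median of all monkeys. The excess was not carried by a few cells or by 1 library: the 4 libraries of this monkey lay between 1604 and 1902 CPM, all 362 of its α-cells had the transcript, and its median cell was at 1597 CPM. Its 11 β-cells were at 884 CPM against at most 328 CPM in β-cells of other young monkeys and 426 CPM in those of old monkeys, and its δ-cells were at 952 CPM against at most 669 CPM in δ-cells of the other monkeys. By acinar RNA, IFI6 was at 1775 CPM in its 150 α-cells without an acinar UMI, at 1679 CPM in the 212 with any, and at 1126 CPM in the 25 with over 1000 CPM of acinar genes, so that the level was lower in cells with more acinar RNA. The rest of the program was not uniformly high in that monkey. MX1, the classical interferon-induced GTPase, was also highest there in α-cells (12.7 CPM against 0 to 11.4 CPM elsewhere), but IFIT1 (99.2 CPM) and IRF7 (7.92 CPM) were within the range of the other monkeys. IFI6 differed between monkeys in α-cells under all 25 alternatives tried, the one without young female 2 included (adjusted p at most 1.8e-14).

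**Figure D2:**
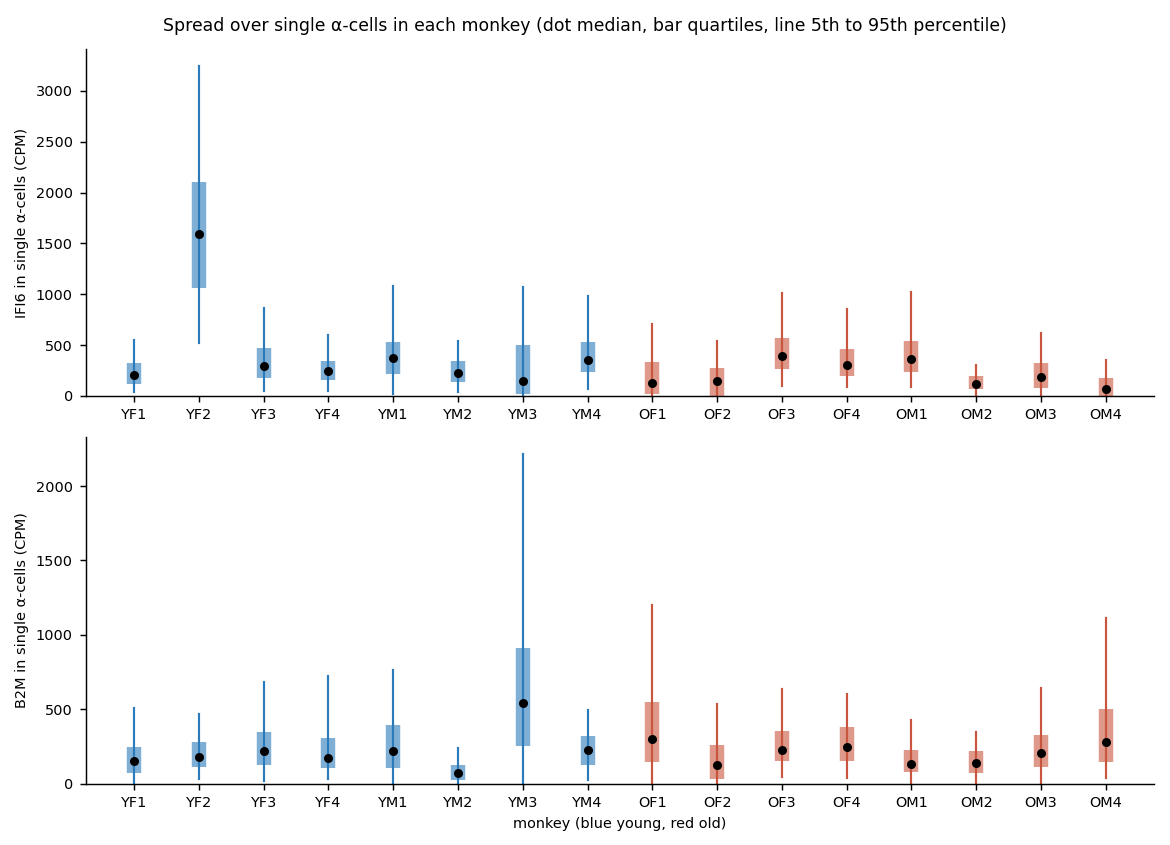
CPM of IFI6 (top) and B2M (bottom) in single α-cells of each monkey, where dots are medians, bars quartiles and lines the 5th to 95th percentile. The lower quartile of IFI6 in young female 2 lies above the upper quartile of every other monkey, and the median B2M level is highest in young male 3.

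Antigen presentation varied in another animal. B2M in α-cells ran from 89.4 CPM (young male 2) through a median of 252 to 737 CPM (young male 3) in young monkeys and from 171 through 278 CPM up to a highest value in old female 1 among the old ones. PSMB9 ran from 3.39 through 10.2 to 141 CPM (young male 3) in young monkeys, and from 0.523 through 6.63 to 29.8 CPM (old female 1) in old ones. PSMB8 was at 38.3 CPM in young male 3 and between 1.40 and 8.38 CPM in the 7 other young monkeys. Young male 3 was thus highest of all 16 monkeys in B2M, PSMB9, PSMB8 and TAPBP (14.2 CPM, next 8.91 CPM). The 4 libraries of this monkey held between 702 and 768 CPM of B2M and between 69.5 and 229 CPM of PSMB9. The differences between monkeys had adjusted p-values of 3.5e-10 for B2M, 9.6e-08 for PSMB9 and 0.00012 for PSMB8 (edgeR), and without young male 3 the call of PSMB8 was lost (adjusted p = 0.268), as it was without possible doublets (0.106).

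The same monkey was at the bottom for other members. NLRC5, the transactivator of class I genes, was at 0.618 CPM in α-cells of young male 3 and between 3.88 and 26.6 CPM in all others. IFIT3, an RNA-binding effector, was at 0.112 CPM there, from 2 UMIs in 280 cells, and between 3.42 and 13.9 CPM in all others. GBP2, an interferon-γ-induced GTPase, was at 0.169 CPM against 0.961 to 6.03 CPM. NLRC5 (adjusted p = 0.0037) and IFIT3 (0.0021) differed between monkeys by edgeR, while GBP2 gave 0.42. A high immunoproteasome and B2M level and a low level of NLRC5 and IFIT3 thus met in a single animal. This animal also had the lowest median depth per cell, and the part of depth in its levels was not tested. IFIT3 no longer differed between monkeys without young male 3 (adjusted p = 0.427 in α-cells and 0.399 in β-cells). In β-cells it was also lost without possible doublets (0.0621), with a clear hormone required (the highest at least 2 times the next, 0.128) and without the inflamed cells, those with at least 2 of the 5 inflammatory genes (0.102).

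Young male 3 also held most of the cells with inflammatory genes, with at least 2 of the 5 genes detected in 91 of its 280 α-cells, 18 of its 44 β-cells and 4 δ-cells, and in at most 4 α-cells of any other monkey. Within its α-cells, B2M was at 744 CPM in those 91 cells, at 564 CPM in 69 cells with 1 of the 5 genes and at 830 CPM in 120 cells with none. PSMB9 was at 198, 131 and 76.5 CPM in the same 3 sets of cells. PSMB8 was at 56.3, 4.05 and 35.8 CPM. In its far fewer β-cells (18, 10 and 16 cells) B2M was at 601, 369 and 274 CPM. In α-cells B2M was thus highest in the cells without the inflammatory genes and in β-cells in those with at least 2 of them. The value of the 10 β-cells rests on 75 UMIs of B2M. Detection of a gene depends on depth, and the depth of these sets was not compared. CXCL10, a chemokine that draws T cells and is induced by interferon-γ, was at 17.8, 2.16 and 0 CPM in the α-cell sets. In the β-cell sets it was at 2.94, 0 and 0 CPM. It was detected in only 1.24% of all α-cells, and its level was 8.32 CPM in young male 3, 3.26 CPM in old female 1 and at most 1.37 CPM elsewhere. Without the 124 cells of all monkeys that held at least 2 of the inflammatory genes, 15 members differed between monkeys in α-cells and 11 in β-cells. How far these cells or other cell types contribute to the level in young male 3 was not tested beyond these values.

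Old female 1 was the old monkey with most high values. In α-cells it was highest among the old monkeys for B2M, PSMB9, IRF9 (45.4 CPM), NLRC5 (21.9 CPM), IFIH1 (143 CPM), MX1 (11.4 CPM), IFI27 (26.3 CPM) and GBP1 (19.4 CPM, next 7.63 CPM). Its α-cells also held the most immune marker RNA of the old monkeys (144 CPM) and the most stellate-cell marker RNA of all monkeys (209 CPM), and the part of these in the result was not tested. Young female 3 was highest of all monkeys in the signalling factors IRF9 (59.0 CPM) and IRF1 (44.8 CPM) and in the antigen presentation genes TAP1 (25.9 CPM) and NLRC5 (26.6 CPM). IRF1 differed between monkeys (adjusted p = 0.016, edgeR), but not without young female 3 (0.364), possible doublets (0.0781) or the inflamed cells (0.0620), and TAP1 likewise (0.0089, and 0.0726 without it). IFI27, an effector known from blood as an early sign of interferon exposure, was at 66.4 CPM in young female 1 and at 0.261 CPM in old male 2, with a median of 13.5 CPM in young and 4.99 CPM in old monkeys (adjusted p = 6.0e-05 between monkeys). Its libraries differed widely within a monkey, from 11.9 to 171 CPM in young female 1. Further calls were lost without a single monkey for GBP1 (0.0700 without old male 2) and TRIM22 (0.100 without young female 1). PARP14 was lost without old male 4 (0.0798) or young female 4 (0.0623), after thinning (0.123), without possible doublets (0.0953) and without the inflamed cells (0.0568).

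Other members varied less between monkeys. IFIT1, which binds viral RNA lacking 2′-O methylation, ran only from 63.2 to 115 CPM in α-cells of the 16 monkeys, and IFI35 from 24.2 to 48.5 CPM. DDX58 ran from 9.58 to 26.3 CPM and STAT2 from 3.50 to 9.42 CPM. None of these differed between monkeys in α-cells at an adjusted p under 0.05 (0.11 for IFIT1).

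It was asked whether a monkey high in one type was high in the other. Over 16 monkeys and 23 members, Pearson's r of log2(CPM + 1) had a median of 0.21 and was above 0 for 20 members. IFI6 had r = 0.90 and Spearman's rho = 0.83 (permutation test with 100000 resamples, two-sided, adjusted p = 0.00023 and 0.0046 over the 23 members). The raw p for r of 1e-05 is the smallest these resamples can give. Without the 2 monkeys farthest from the median (young female 2 and old male 4) r was 0.73, and it was 0.97 within the young and 0.84 within the old monkeys.

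Both measures passed for IFIH1 (r = 0.68, rho = 0.72, permutation adjusted p = 0.024 and 0.029) and IRF9 (r = 0.71, rho = 0.67, permutation adjusted p = 0.019 and 0.041). Without the 2 farthest monkeys r was 0.54 and 0.56. Within the young and the old monkeys r was 0.52 and 0.94 for IFIH1, and 0.92 and 0.29 for IRF9. For B2M r was 0.72 (permutation adjusted p = 0.019) and rho 0.61 (0.065), with r = 0.73 within the young and 0.75 within the old monkeys. For IFIT3 r was 0.79 but rho 0.38, and without young male 3 and old female 2 r was 0.37, so that this relation rested on those monkeys. IFIT1 had r = 0.02. IFI27 (r = 0.64, rho = 0.61) and TAPBP (r = 0.62, rho = 0.54) passed on r (permutation adjusted p = 0.031 each) but not on rho (0.065 and 0.104). The shared libraries and day are part of what the points have in common.

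**Figure D3:**
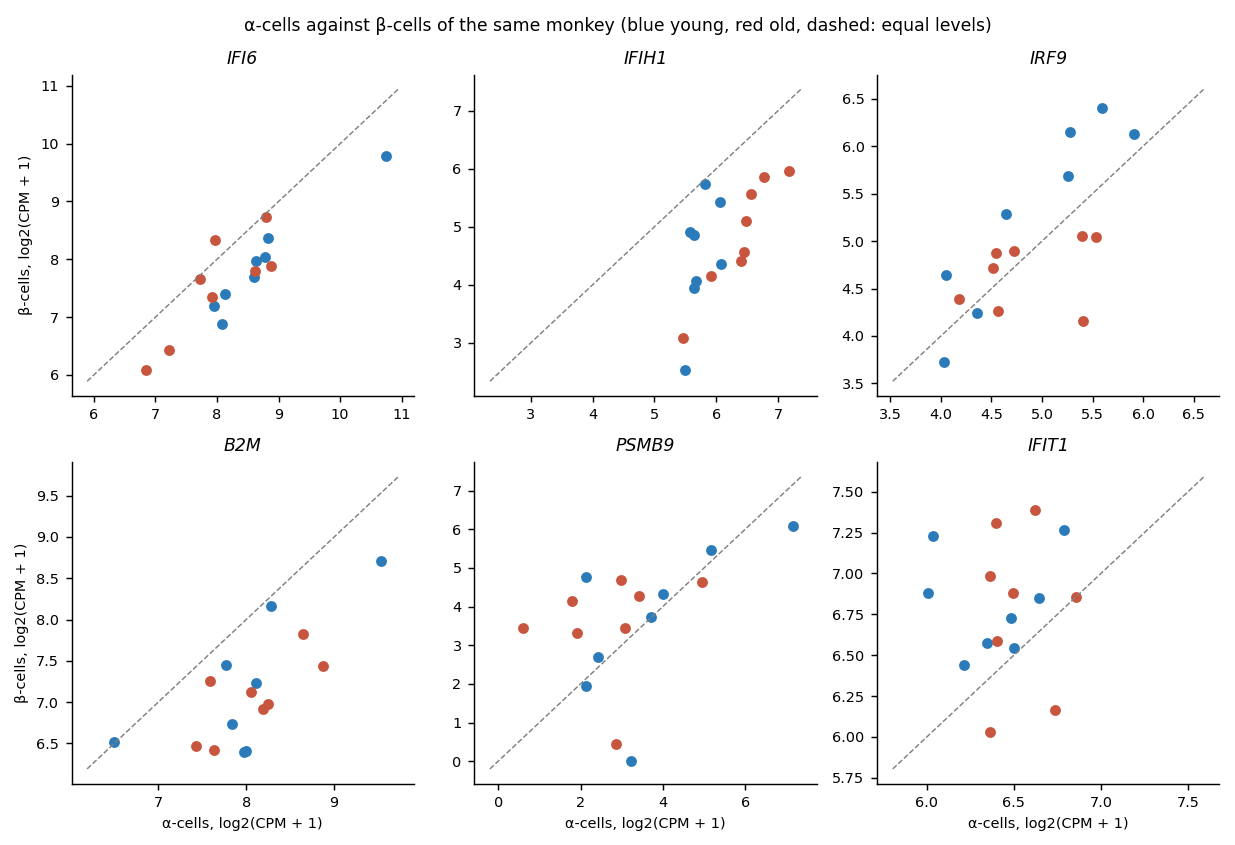
Level of 6 members in β-cells (y axis) against α-cells (x axis) of the same monkey, both as log2(CPM + 1), with young monkeys in blue and old ones in red. IFI6 follows a line over all 16 monkeys, IFIH1 lies below the dashed line of equal levels in all of them, and IFIT1 shows no relation.

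To ask which endocrine cells carried the program, UMI counts were summed per monkey and type and tested with edgeR with the monkey as a block. Between α- and β-cells 8 of 31 tested members differed (4 higher and 4 lower in α-cells), against 25% of 12899 genes (16.3% higher and 8.66% lower), so the members were not called more often than other genes. The median log2 difference was 0.15 over the members and 0.11 over all genes. The differences below are those of the fit, and relative to the median gene each is 0.11 lower.

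The sensor IFIH1 was the member with the most uniform difference. It ran from 43.1 through a median of 62.5 to 143 CPM in α-cells and from 4.82 through 25.3 to 61.3 CPM in β-cells, and it was higher in α-cells of all 16 monkeys (log2 difference 1.41, SE 0.33, edgeR adjusted p = 0.00081). The other sensor, DDX58, gave −0.64 (SE 0.40, adjusted p = 0.26). After thinning every cell to 10000 UMIs, IFIH1 was seen in 27.2% of α-cells and 12.4% of β-cells, against 51.3% and 36.4% before. STAT2 was in the opposite direction, with 3.50 to 9.42 CPM (median 6.35) in α-cells and 0 to 45.5 CPM (median 23.7) in β-cells. It was higher in α-cells of only 2 of 16 monkeys (−1.36, SE 0.48, edgeR adjusted p = 0.030), a call that was lost without any 1 of 6 monkeys (old females 2 and 4, old males 1 and 3, young female 3 and young male 4, up to 0.0617) and without possible doublets (0.128).

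Among the effectors, IFI6 (0.64, SE 0.15, adjusted p = 0.00070) and MX2 (2.04, SE 0.59, adjusted p = 0.0078) were higher in α-cells by edgeR. IFI6 ran from 114 through 334 to 1713 CPM in α-cells and from 67.2 through 214 to 884 CPM in β-cells and was higher in α-cells of 15 of 16 monkeys. MX2, a GTPase that restricts retroviruses, was at 0.283 to 3.31 CPM in α-cells and at 0 to 3.77 CPM in β-cells, where 4 monkeys were at 0, and was higher in α-cells of 14 of 16 monkeys. Neither was called without the monkey block (0.129 and 0.0871). The ranges of both genes overlapped between the types, and the difference lay within the monkeys.

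3 effectors were lower in α-cells. IFI44 was at 0 to 4.05 CPM (median 1.08) in α-cells and at 0 to 45.0 CPM (median 5.85) in β-cells, a difference of −2.93 (SE 0.61, edgeR adjusted p = 0.00017) that held under all 27 alternatives. DDX60, a helicase that aids the RNA sensors, was at 0 to 2.43 CPM (median 0.379) in α-cells and at 0 to 19.2 CPM (median 3.02) in β-cells (−2.46, SE 0.81, edgeR adjusted p = 0.019), but its call was lost without possible doublets (0.0599) and without the inflamed cells (0.0523). IFIT3 was at 0.112 to 13.9 CPM (median 7.66) in α-cells and 0 to 45.0 CPM (median 18.1) in β-cells. Its difference of −1.19 (SE 0.44, edgeR adjusted p = 0.040) was lost under upper quartile scaling (0.0507) and without any 1 of 7 monkeys (old females 2 and 4, old males 3 and 4, young female 1 and young males 2 and 4, up to 0.0678).

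B2M was the only gene of antigen presentation that differed between α- and β-cells by this test. It ran from 89.4 through 259.9 to 737 CPM in α-cells and from 82.9 through 132 to 418 CPM in β-cells, was higher in α-cells of 15 of 16 monkeys (0.91, SE 0.17, edgeR adjusted p = 4.2e-05) and held under all 27 alternatives. PSMB8 gave −1.21 (SE 0.51, adjusted p = 0.075) and NLRC5 0.76 (SE 0.51, adjusted p = 0.31).

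**Figure D4:**
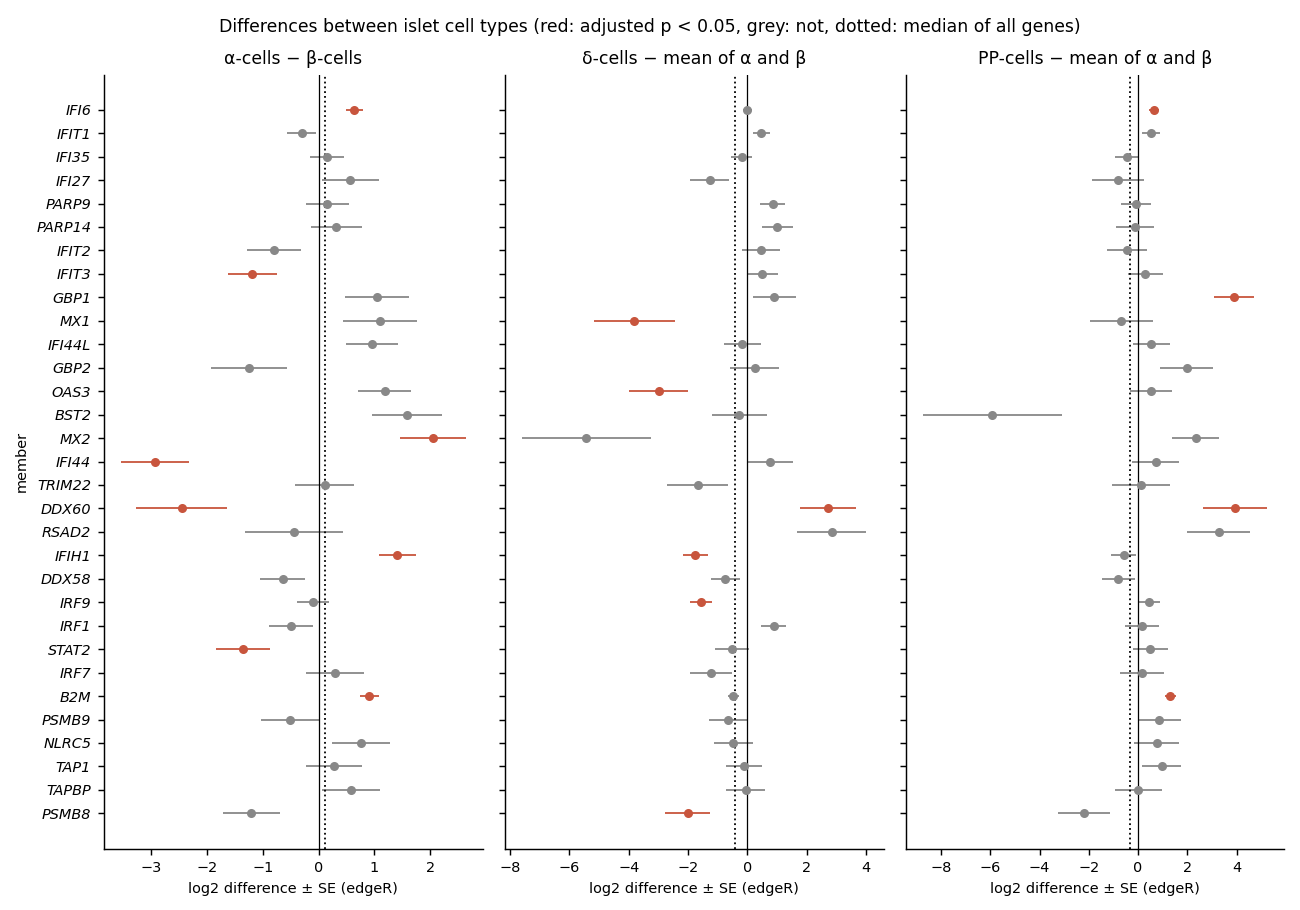
Log2 difference ± SE (edgeR, monkey as block) of 31 members between α- and β-cells (left), and between δ-cells (middle) or PP-cells (right) and the mean of α- and β-cells. Red marks an adjusted p under 0.05 and the dotted line the median of all genes. IFIH1 and B2M are right of 0 in the left panel, IFIH1 and IRF9 left of 0 in the middle one, and B2M and GBP1 right of 0 in the right one.

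The δ-cells and PP-cells were few, and single cells weigh heavily in what follows. In δ-cells 6 of 31 members differed from the mean of α- and β-cells (1 higher and 5 lower), against 19.6% of 12899 genes (4.09% higher and 15.5% lower). The median was −0.19 over the members and −0.41 over all genes. IFIH1 was at 0 to 66.1 CPM (median 7.87) in δ-cells of 11 monkeys and lower than the mean of their α- and β-cells in 10 of them (−1.75, SE 0.43, edgeR adjusted p = 0.0026, −1.35 relative to the median gene). IRF9 was at 0 to 74.7 CPM (median 5.44) and higher in only 2 of 11 monkeys (−1.56, SE 0.37, edgeR adjusted p = 0.0019, −1.16 relative to the median gene). A single cell gave 32.7% of the 101 IFIH1 UMIs in δ-cells. IFIH1 held under all 27 alternatives, and IRF9 under all but the thinning to 10000 UMIs (0.0842).

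The remaining δ-cell calls rested on few UMIs. MX1 had 2 UMIs in δ-cells, a ratio to the mean of α- and β-cells of 0.121 (exact 95% counting interval 0.0147 to 0.439), and OAS3 had 1 UMI, a ratio of 0.0997 (0.00253 to 0.556). MX2 had 0 UMIs in 112 δ-cells, a ratio to that mean of 0 (exact 95% counting interval 0 to 0.574). A floor of 3 counts over all δ-cells (0.549 CPM) lies 2.14-fold below that mean of 1.17 CPM. The counting interval allows a smaller difference than this, up to a ratio of 0.574. MX2 was lower in β-cells than in α-cells, so a level below that of β-cells is not shown. MX1, OAS3 and PSMB8 (17 UMIs, edgeR adjusted p = 0.048) lost their calls under 17 of 26, 6 of 26 and 22 of 27 alternatives. DDX60 was higher (2.72, SE 0.95, edgeR adjusted p = 0.036), but in only 4 of 11 monkeys, and 37.9% of its 95 UMIs came from 1 cell. Its call was lost without any 1 of 5 monkeys (old female 2, old male 4, young females 1 and 4, and young male 4, up to 0.189) and with over 2000 genes and 20000 UMIs required (0.0842).

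In PP-cells 4 of 31 members differed and all 4 were higher, against 9.93% of all genes (3.59% higher and 6.34% lower). The median was 0.45 over the members and −0.31 over all genes. B2M was at 823 and 455 CPM in the PP-cells of young males 1 and 4, at 871 and 352 CPM in those of old females 1 and 2, and at 105 and 604 CPM in those of old males 2 and 4. It was higher than the mean of α- and β-cells in 5 of 6 monkeys (1.31, SE 0.23, edgeR adjusted p = 8.2e-05, 1.62 relative to the median gene) and held under all 27 alternatives. Only old male 2 went the other way. The PP-cells of old female 1 also held 966 CPM of stellate-cell marker RNA, against at most 26.7 CPM in those of the other 5 monkeys, and the call of B2M held without that monkey.

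GBP1, a GTPase that attacks the membranes around intracellular pathogens, was at 139.9 and 217 CPM in young males 1 and 4, at 8.22, 18.7 and 51.2 CPM in old females 1 and 2 and old male 4, and at 0 in old male 2. It was higher in 4 of 6 monkeys (3.88, SE 0.81, edgeR adjusted p = 0.0011), with 30.8% of its 208 UMIs from 1 cell. IFI6 was at 81.5 to 1055 CPM (0.65, SE 0.21, edgeR adjusted p = 0.037) and higher in only 3 of 6 monkeys, and its call was lost without any 1 of old female 1, old male 4, young female 1 or young male 1 (up to 0.255), after thinning (0.395), without the monkey block (0.715), with a clear hormone required (0.192) and with no filter on low counts (0.0537). DDX60 (3.93, SE 1.31, edgeR adjusted p = 0.045) drew 67.7% of its 99 UMIs from 1 cell, and its call was lost without any 1 of old male 2, young females 1 and 4 or young male 4 (up to 0.372), without possible doublets (0.0583) or with a clear hormone required (0.0540). With at least 10 cells of a type required, a single monkey with PP-cells remained (old female 2), and GBP1 was no longer called (0.398).

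Age was the contrast the study was designed for, and for these genes it gave no call. With sex as a covariate, 0 of 28 tested members differed between old and young monkeys in α-cells by edgeR, against 0% of 12916 genes. An unadjusted p under 0.05 was reached by 3 members in α-cells, and DESeq2 also called 0. In β-cells the count was 0 of 24, against 0.047% of 10628 genes (0.0376% higher and 0.00941% lower in old monkeys), with 3 at an unadjusted p under 0.05 and 0 by DESeq2. The median log2 difference between old and young was −0.16 over the members in α-cells (0.00 over all genes) and −0.32 in β-cells (−0.01 over all genes). Values below 0 were given by 21 of 28 members in α-cells and 18 of 24 in β-cells, among them 4 of 4 signalling factors in α-cells (median −0.26) and 6 of 6 genes of antigen presentation in β-cells (median −0.67). These are directions without a call, and members of a pathway are not independent of each other.

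IFIH1 went against that direction. Its α-cell level ran from 44.2 through 49.5 to 66.6 CPM in young and from 43.1 (old male 2) through 87.6 to 143 CPM (old female 1) in old monkeys. All old monkeys but old male 2 and old female 4 (59.0 CPM) lay above every young monkey. The log2 difference was 0.69 (SE 0.17, edgeR unadjusted p = 0.00077, adjusted p = 0.53), with a range of 0.57 to 0.80 over the alternatives and adjusted p-values between 0.0569 and 0.757. It was 0.93 (SE 0.24) in females and 0.47 (SE 0.24) in males, and neither passed the adjustment (0.38 and 0.96). In β-cells IFIH1 ran from 4.82 through 23.7 to 52.4 CPM in young and from 7.53 through 28.0 to 61.3 CPM in old monkeys, and the groups overlapped throughout.

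PSMB8 and IFI6 had the other unadjusted p-values under 0.05 in α-cells. PSMB8 was at 1.40 to 38.3 CPM (median 5.01) in young and 1.16 to 3.47 CPM (median 1.74) in old monkeys, and 5 young monkeys lay above the highest old one. The log2 difference was −2.0 (SE 0.58, edgeR unadjusted p = 0.0027, adjusted p = 0.56), −1.08 without young male 3 and −1.18 without possible doublets. For IFI6 it was −0.88 (SE 0.38, edgeR unadjusted p = 0.033, adjusted p = 0.70), and −0.33 without young female 2. Both differences were thus smaller without 1 young animal each, and both kept their direction. Over the alternatives PSMB8 ran from −2.26 to −1.08 and IFI6 from −1.14 to −0.33. Their adjusted p-values (edgeR or DESeq2) were at least 0.0569 and 0.557. IFIT1, at 63.2 to 109.6 CPM in young and 81.2 to 115 CPM in old monkeys, and B2M, at a median of 252 CPM in young and 278 CPM in old monkeys, overlapped between the ages.

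In β-cells the unadjusted p-values under 0.05 were those of IRF9, NLRC5 and IRF1. IRF9 ran from 12.2 through 44.2 to 83.6 CPM in young and from 16.8 through 26.9 to 32.3 CPM in old monkeys (−0.84, SE 0.34, edgeR adjusted p = 0.83). NLRC5 ran from 0 through 8.41 to 28.9 CPM in young and from 0 through 3.73 to 11.1 CPM in old monkeys (−1.41, SE 0.65, edgeR adjusted p = 0.88). IRF1 ran from 11.6 through 19.7 to 60.4 CPM in young and from 10.1 through 15 to 24.6 CPM in old monkeys (−0.77, SE 0.37, edgeR adjusted p = 0.89, −0.49 without young male 1 and −0.12 after thinning to 10000 UMIs). For IRF9 and IRF1 the young monkeys were spread more widely than the old ones, and the old range lay mostly within the young one.

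**Figure D5:**
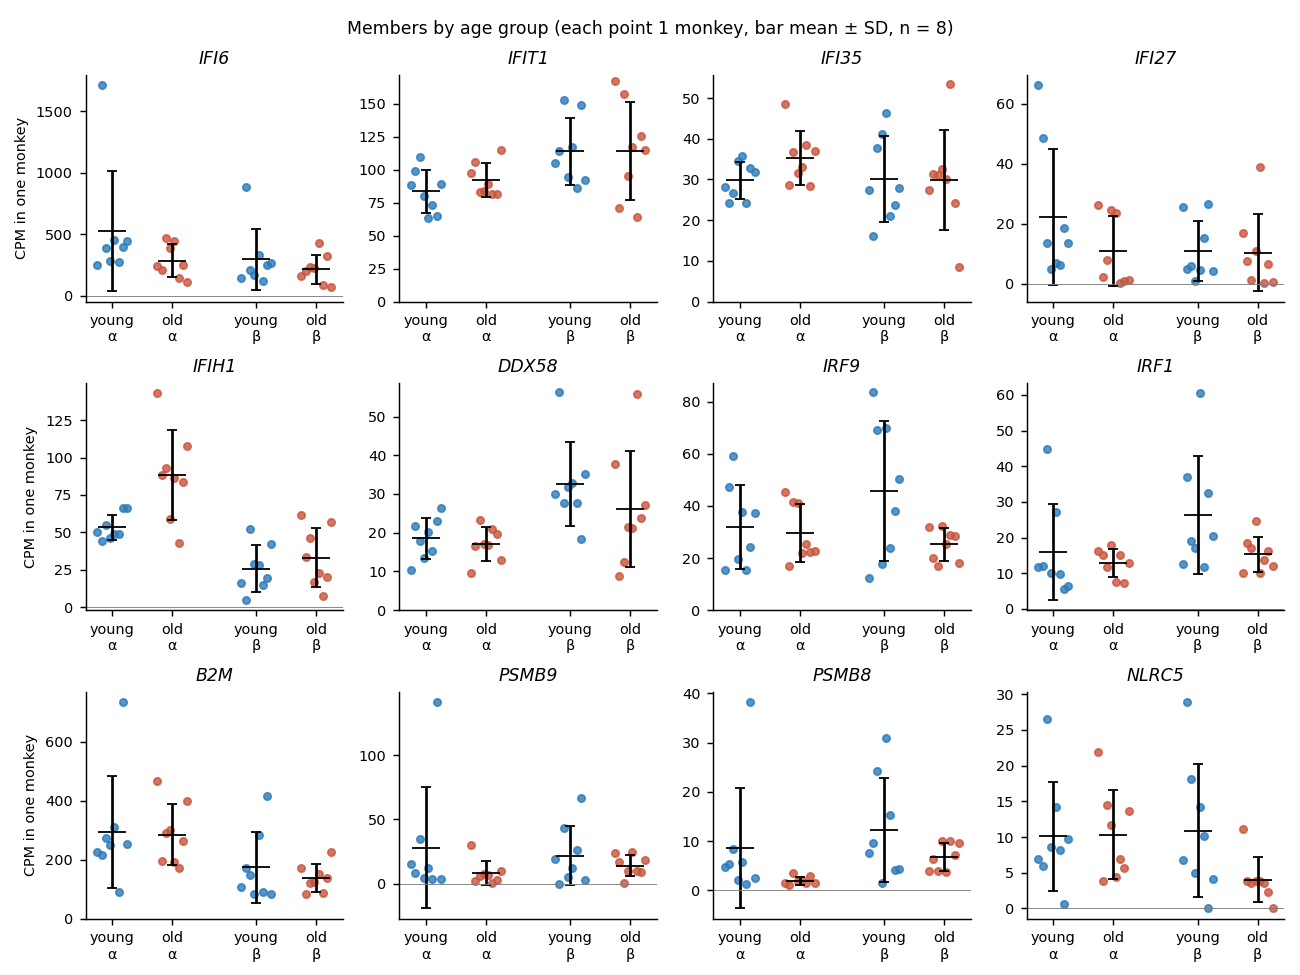
CPM of 12 members in α- and β-cells of young and old monkeys, where each point is a monkey and the bar is the mean ± SD (n = 8 per age group). IFIH1 in α-cells is the one panel in which most old monkeys (6 of 8) lie above all young ones, and single young monkeys stand far above the rest for IFI6 and PSMB9.

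In δ-cells 0 of 9 and in PP-cells 0 of 14 tested members differed with age by edgeR and by DESeq2, against 0% of 6484 and 6568 genes, and 1 and 5 members had an unadjusted p under 0.05. With 4 old monkeys for δ-cells and 2 young ones for PP-cells, a 0 here says little. Whether the age difference itself differed between females and males was tested as an interaction, and 0 of 31 members in α-cells and 0 of 28 in β-cells were called by edgeR, against 0.00707% of 14146 and 0% of 11693 genes, with 3 at an unadjusted p under 0.05 in each and 0 by DESeq2. Within females and within males no member was called with age by edgeR either. The background within males was 0.0141% of genes in α-cells (0.00707% in each direction) and 0.0257% in β-cells (0.00855% higher and 0.0171% lower), and within females it was 0%. Unadjusted p-values under 0.05 were given by 1 member in females and 3 in males, in α-cells and again in β-cells. DESeq2 was not run within a sex.

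A further 70 genes of the pathway, from the interferons and their receptors to class II molecules, placed the members in context. Between α- and β-cells 21 of 53 tested genes differed by edgeR (12 higher and 9 lower in α-cells), which is 39.6% against 25% of all genes, with a median of −0.03 against 0.11 over all genes. All 4 tested class II genes were higher in α-cells. CD74, the invariant chain of class II, gave 1.23 and was higher in 11 of 16 monkeys, with α-cell levels from 0.0849 through a median of 17.9 to 1781 CPM in young male 3. Immune cells also carry class II genes. In young monkeys the immune marker genes held 11.8 to 272 CPM (median 46.7) in α-cells and 15.8 to 82.8 CPM (median 24.9) in β-cells. In old monkeys they held 12.5 to 144 CPM (median 23.7) and 6.66 to 92.6 CPM (median 23.2). The part of immune RNA in the class II difference was not tested. The type I receptor chain IFNAR1 was lower in α-cells (−0.89), while IFNLR1, the receptor chain for interferon-λ, was higher in α-cells of all 16 monkeys (2.04). The 4 interferon genes in the files were too low to be tested.

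In PP-cells the class I heavy chain genes HLA-E (1.36) and MAFA-F (2.53) were higher in 6 of 6 monkeys, beside 2 further pathway genes, and 2 were lower (6 of 53 in all, 11.3% against 9.93% of all genes). In δ-cells 7 of 53 were called (13.2%), all lower, which is below the 19.6% of all genes called and the 15.5% called lower. Between monkeys 28 of 53 pathway genes differed in α-cells (52.8%, against 39% of all genes) and 14 of 49 in β-cells (28.6%, close to the 25.6% of all genes). With age 0 of 49 differed in α-cells and 0 of 40 in β-cells by edgeR, and 4 in each had an unadjusted p under 0.05. Members of the IFIT, OAS, GBP and MX families and class I and II genes have close copies in the genome, and how reads were split between copies was not tested.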

How the data were processed

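Single-cell libraries of islet cells from 16 cynomolgus monkeys were analysed. The authors deposited UMI counts per gene and cell, aligned to Macaca_fascicularis_5.0 by the study's methods, and the submitters' processing notes name CASAVA 1.8 and TopHat2 2.0.12. The 95 spike-in features (5.41% of UMIs) were left out, and 0 columns of other samples were set aside. Retained cells (more than 800 genes, more than 10000 UMIs) received their type from the highest of GCG, INS, SST and PPY. Possible doublets were kept and left out in an alternative. Counts were summed per monkey and type (at least 5 cells) and tested with edgeR 4.0.16 (quasi-likelihood, TMM, R 4.3.3), with sex as covariate for age, the monkey as block for types, and sums per library (at least 5 cells) for monkeys. The p-values are two-sided, except those of the F test between monkeys, which has no direction. Adjusted p-values are by Benjamini-Hochberg over all genes tested, or over the 23 members for the correlations. The SE is the absolute log2 difference divided by the square root of F. DESeq2 1.42.0, other scalings, filters, thinning to 10000 UMIs and leaving out each monkey were alternatives. Scripts were tested on simulated data. Named members were those called with age or in the interaction, the 3 highest of each role in α-cells, the 5 most variable between monkeys among those of at least 10 CPM, and the 5 largest calls in each direction per cell type comparison; other members are named for single values and were chosen after these were seen. The members and lists were chosen with earlier results of these data known.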

Additional observations from a re-analysis of the deposited data

Results flagged for a closer look

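In 13 of 72 groups of 8 monkeys that were checked, the highest monkey stood apart by Dixon's criterion (gap to the next monkey over 0.526 of the group's range). Its chance rate of about 1 in 20 holds for independent groups of normally distributed values. The groups here share the same monkeys, and the CPM were not tested for normality. The 13 groups therefore cannot be set against that rate. In α-cells young female 2 was at 1713 CPM of IFI6 (next young monkey 452), and young male 3 at 737 CPM of B2M (next 310.0), 141 CPM of PSMB9 (next 35.2) and 38.3 CPM of PSMB8 (next 8.38). Old female 1 was at 29.8 CPM of PSMB9 (next old monkey 9.73), 4.05 CPM of IFI44 (next 1.25) and 19.4 CPM of GBP1 (next 7.63). In β-cells young female 2, with 11 cells, was at 884 CPM of IFI6 (next 328) and 56.3 CPM of DDX58 (next 35.2). Old female 1 was at 11.1 CPM of NLRC5 (next 3.89) and 21.8 CPM of IFI44 (next 10.5). Old male 1 was at 39.0 CPM of IFI27 (next 16.7), and old female 3 at 10.7 CPM of DDX60 (next 4.09). The age difference of no member was called as differing between females and males.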

How the results depend on the processing

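The counts of called members kept within 1.5 times of the reported ones, except as follows. For δ-cells against α- and β-cells (6 reported) the count was 3 where the highest hormone had to be at least 2 times the next, 2 with over 2000 genes and 20000 UMIs, and 11 without the monkey block, and it ran from 2 to 5 when a monkey was left out. For PP-cells (4 reported) it was 1 with at least 10 cells per sum and ran from 2 to 5 when a monkey was left out. Between monkeys in β-cells (8 reported) it was 14 with no filter on low counts and ran from 5 to 9 when a monkey was left out. With at least 10 cells, 2 values in PP-cells reversed, to −1.67 for DDX60 and −0.13 for IFI6, from 1 monkey with enough PP-cells. The cause of the other changes was not tested. All counts for age stayed at 0, DESeq2 included. Replicate numbers shared by young and old monkeys were not taken to pair them. Their 8 correlations ran from −0.03 to 0.13, with 4 of 8 young monkeys closest to their own number. These values were not set against chance. With a replicate block 0 members were called with age in α-, β- and δ-cells. The replicate block and the minimum of 10 cells could not be fitted for age in PP-cells. Depth limits chiefly δ- and PP-cells, with 112 and 74 cells, where a member without a call may still differ.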
